A study of Mus musculus with 12 samples.

Results

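The 37 genes described here make or shape the nucleolus and the ribosome precursors assembled in it. They were taken as a named list, by gene symbol, from the 52661 genes of the deposited expression table. The list was proposed as nearly still on Puf60 knockdown and lower on cDNA induction in both cell lines, so these directions are given below as a description of the list and support nothing. Of the 37 genes, 33 had exon-exon junction reads in each library, among 10363 genes with a mean of at least 20 such reads. For Fbl, Wdr12, Ddx18 and Noc2l no intron reads were used here, and for these 4 only the authors' group values are given. By role the list holds 3 proteins of box C/D small nucleolar ribonucleoproteins (snoRNPs), 4 of box H/ACA snoRNPs, 9 RNA polymerase I subunits and nucleolar scaffold proteins, 8 factors of small subunit processing and 13 of large subunit processing.

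RNA polymerase I transcribes the ribosomal RNA genes in the nucleolus, and the long precursor is cut, folded and chemically modified there while ribosomal proteins join it. Box C/D snoRNPs guide ribose methylation of the precursor and box H/ACA snoRNPs guide conversion of uridine to pseudouridine. Separate sets of processing factors then build the small and the large subunit, and many genes of this group respond together to growth signals, among others through MYC.

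Polyadenylated RNA came from N2A cells, a mouse neuroblastoma line, depleted of Puf60 and then given a Puf60 cDNA. Puf60 is a splicing factor that helps U2 snRNP recognise the 3′ ends of introns. All 12 libraries came from Flp-In rtTA3 N2A cells with an integrated, doxycycline-inducible and siRNA-resistant Puf60 cDNA with an N-terminal 3xFlag tag. The cDNA held exon 5 in the pEx5 line and lacked it in the mEx5 line. The control groups (pEx5 and mEx5) received a non-targeting siRNA, the knockdown groups an siRNA against Puf60, each at 15 nM. The induction groups received the Puf60 siRNA and doxycycline at 2 µg/ml for 24 h. Harvest followed transfection by 48 h in every group. There were 6 groups with 2 libraries each, A and B, called biological duplicates in the series' design text. Whether these were separate cultures, and whether a line is a single clone, is not given in the sources used here, so the p-values reflect the spread between these libraries alone, which may be technical. None of these libraries combines doxycycline and control siRNA, so the drug and the cDNA cannot be told apart in any induction comparison. The sample descriptions of the doxycycline libraries call them uninduced, against their treatment field, and the treatment field was used.

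The libraries held 22908930 to 41494994 exon-exon junction reads, and the 4 induction libraries 22908930 to 30489955. Puf60 itself stood at 296 to 321 CPM (counts of junction reads scaled to the same library depth) in the 4 controls, 58.3 to 75.5 in the 4 knockdown libraries and 579 to 631 in the 4 induction libraries. Of the neural and neuroblastoma markers 13 of 16 stood above 1 CPM, as the N2A label would have it, with Nefm at 0 in each library, and their summed level ran from 2280 to 2700 CPM. Macrophage markers summed to 0.109 to 0.387 CPM, with C1qa and C1qb at 0, epithelial ones to 0.781 to 2.77 CPM, and fibroblast ones to 1.52 to 11.9 CPM, with Col3a1 at 0 and Pdgfra as the only 1 of 6 above 1 CPM. Of 14 neural markers tested by limma, 5 fell and 2 rose on knockdown, where 24.8% and 27.1% of all genes did. On induction 2 fell and 2 rose, where 18.6% and 19.1% did. Between the controls 6 were higher and 3 lower in pEx5 than in mEx5, where 13.2% and 13.9% were, with log2 differences up to 1.92. Pdgfra rose on knockdown (log2 difference 0.80), fell on induction (-0.56) and was lower in the pEx5 than in the mEx5 controls (-1.78). The part of these shifts and line differences in the results below was not tested. Levels are shares of the reads of bulk RNA, so fewer cells of a type and less RNA per cell cannot be told apart.

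Promoter windows were available from RefSeq (assembly GRCm38.p6) for 32 of the 37 members, each running from 250 bases before to 50 bases after an annotated start. No window was matched for Fbl, Tcof1, Npm1, Rrp12 and Bop1. Both strands were searched for CACGTG, the E-box that MYC and related factors can bind, and for CCGGAAG, a core that ETS factors can bind. The letters of the 2 motifs do not allow them to overlap each other. CACGTG was present in 6 of 32 members (18.8%), against 8.09% of 27025 genes with a window and 12.2% of the 8316 genes with a window that were tested here. The members with it were Mybbp1a, Utp20, Wdr43, Pes1, Nop2 and Grwd1. The ETS core was present in 10 of 32 members (31.2%), against 9.93% of all genes and 21.4% of tested genes, namely in Gar1, Nhp2, Polr1c, Nolc1, Nop2, Noc2l, Noc3l, Ppan, Grwd1 and Nip7. A match describes letters in a window and is neither a site nor a cause. The 4 windows below belong to members whose library values are given further on, and capitals mark the motif matches. Nop2 held both motifs, at 60 and 38 bases before its start, while the match of Mybbp1a lay downstream of the start.
Mybbp1a (chr11:72441077-72441376, plus strand): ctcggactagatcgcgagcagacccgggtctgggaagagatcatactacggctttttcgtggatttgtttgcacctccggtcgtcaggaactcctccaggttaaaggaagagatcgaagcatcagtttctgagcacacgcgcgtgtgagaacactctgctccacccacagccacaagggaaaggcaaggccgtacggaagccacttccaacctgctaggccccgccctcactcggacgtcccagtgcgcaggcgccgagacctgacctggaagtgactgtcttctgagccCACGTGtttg
Nop2 (chr6:125131633-125131932, plus strand): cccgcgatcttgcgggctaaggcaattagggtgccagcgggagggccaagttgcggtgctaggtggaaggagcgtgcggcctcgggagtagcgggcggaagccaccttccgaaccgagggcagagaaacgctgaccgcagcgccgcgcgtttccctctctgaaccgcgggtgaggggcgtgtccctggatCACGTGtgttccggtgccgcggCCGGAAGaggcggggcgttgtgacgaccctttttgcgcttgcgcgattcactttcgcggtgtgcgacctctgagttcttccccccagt
Gar1 (chr3:129831347-129831646, minus strand): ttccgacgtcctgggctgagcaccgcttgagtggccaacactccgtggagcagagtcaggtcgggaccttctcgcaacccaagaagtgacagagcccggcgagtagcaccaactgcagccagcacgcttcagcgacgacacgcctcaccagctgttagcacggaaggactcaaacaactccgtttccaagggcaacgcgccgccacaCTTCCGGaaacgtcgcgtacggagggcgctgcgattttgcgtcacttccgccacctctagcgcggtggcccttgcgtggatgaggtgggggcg
Nhp2 (chr11:51619523-51619822, plus strand): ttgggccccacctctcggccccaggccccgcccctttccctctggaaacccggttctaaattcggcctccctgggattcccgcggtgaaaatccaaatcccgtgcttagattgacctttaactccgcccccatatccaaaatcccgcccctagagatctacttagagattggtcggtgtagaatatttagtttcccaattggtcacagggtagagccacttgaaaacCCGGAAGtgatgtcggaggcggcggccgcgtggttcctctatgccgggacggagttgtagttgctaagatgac
Of the genes with these windows, Mybbp1a fell by 0.30 on induction on the log2 scale, Nop2 by 0.33, Gar1 by 0.15 and Nhp2 by 0.13, and Nop14, whose window held neither motif, by 0.38.

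Each comparison used limma on log2 CPM of junction reads, summed per gene, with p-values adjusted by Benjamini-Hochberg over all 10363 genes and a call at an adjusted p under 0.05. The knockdown libraries enter both the knockdown and the induction comparison, so the values for the same gene in these comparisons are not independent and are given side by side. On knockdown against control, over both lines, 14 of 33 members rose, where 27.1% of all genes did, and 5 fell, where 24.8% of all genes did. The members' median log2 difference was 0.08, with a range from -0.36 for Rrp1b to 0.44 for Nop14, beside a median of 0.01 over all genes tested. On induction against knockdown, 20 of 33 members fell, where 18.6% of all genes did, and 1 (Tcof1) rose, where 19.1% did. The median was -0.12, beside -0.01 over all genes. The members' quartiles on induction were -0.21 and -0.02, beside -0.13 and 0.13 for all genes and -0.185 and -0.01 for 93 other subunit processing genes. The largest fall on induction was that of Nop14, by 23.3%, and the largest rise on knockdown was of the same gene, by 35.2%.

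**Figure D1:**
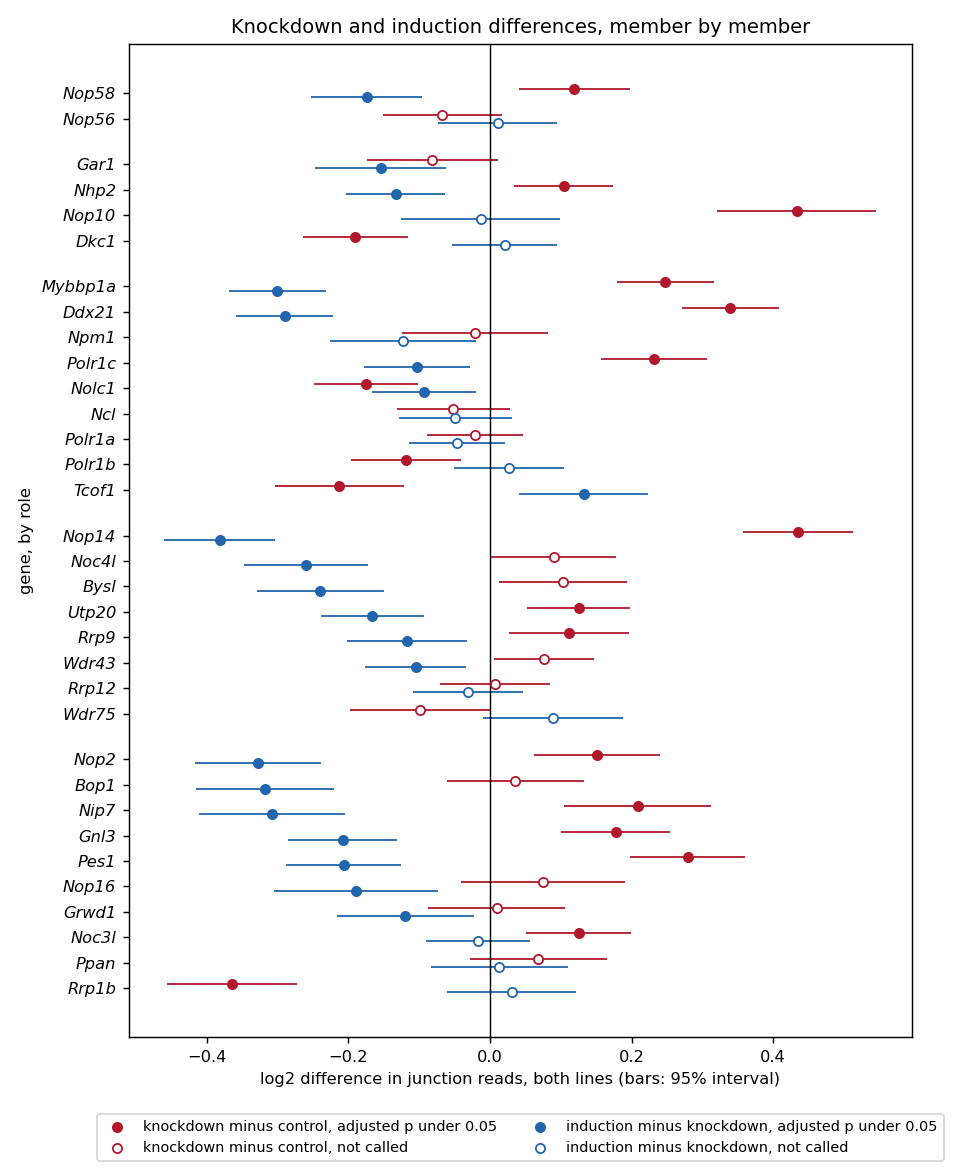
Log2 difference in junction reads for 33 members, knockdown minus control in red and induction minus knockdown in blue, averaged over both lines, with 95% intervals; filled points passed an adjusted p of 0.05 in limma and open points did not. Genes are grouped by role from box C/D snoRNP at the top to large subunit processing at the bottom, and 20 of the blue points are filled to the left of 0 against 1 to the right.

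Within single lines, which share no library, 12 members fell on induction in pEx5, where 9.06% of all genes did, and 14 in mEx5, where 12.6% did. All 12 of the pEx5 members, which is 85.7% of the 14 in mEx5, were called in both lines, where 5.18% of all genes were. Of all genes called lower in pEx5, 57.2% were also called lower in mEx5. No member was called higher in both lines, where 7.91% of all genes were. None rose in pEx5 (12.8% of all genes did) and 2 rose in mEx5, Tcof1 and Wdr75, where 13.2% of all genes did. Counted without a test, 18 members had both induction libraries below both knockdown libraries in both lines, where 18.1% of all genes did. Likewise, 16 members had both knockdown libraries above both controls in both lines, where 27.3% of all genes did.

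**Figure D2:**
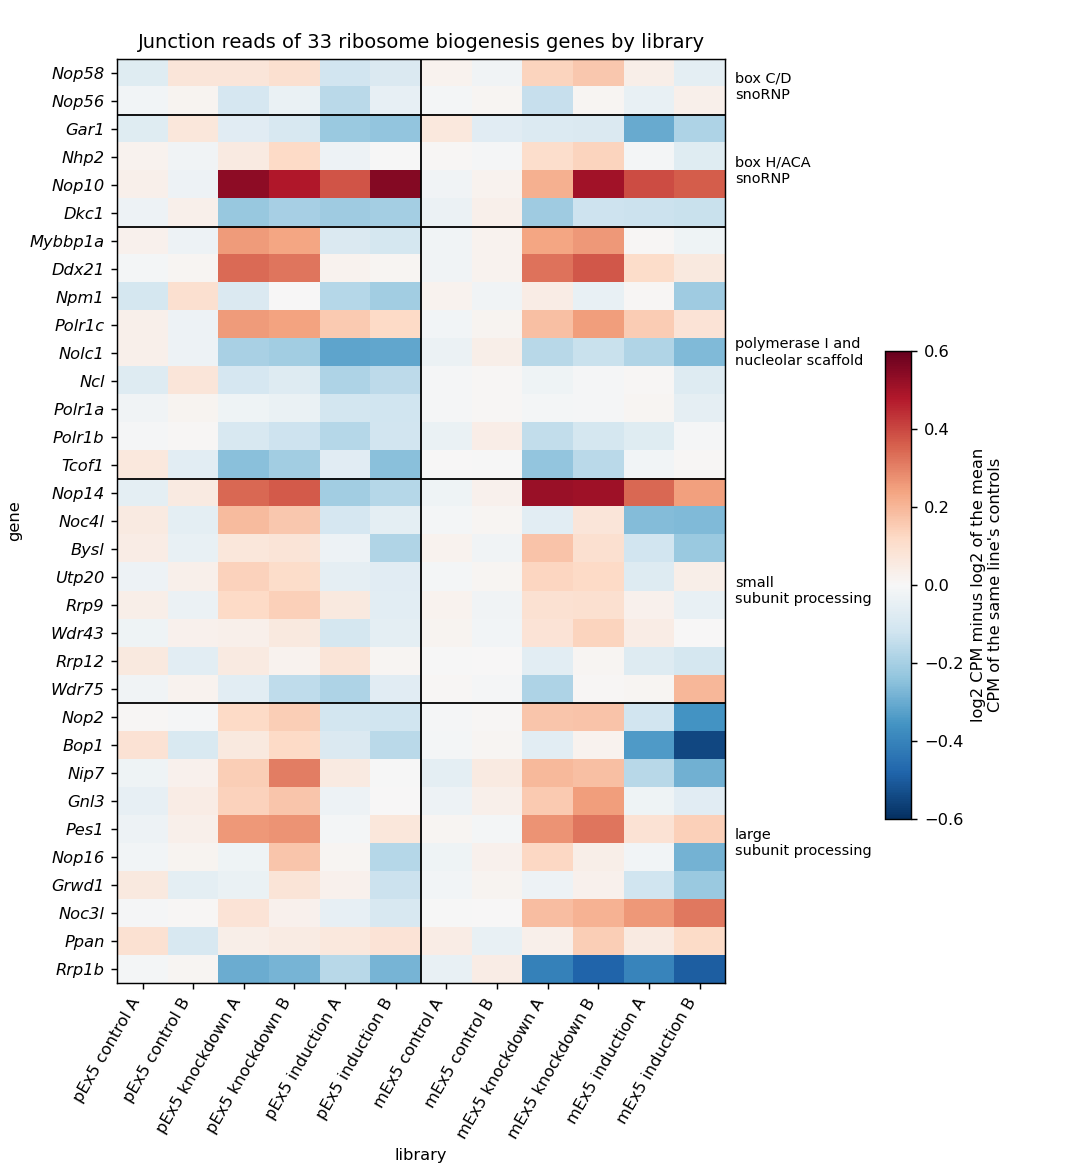
Heat map of 33 members (rows, by role) in 12 libraries (columns), coloured by log2 CPM minus the log2 of the mean CPM of the same line's 2 controls, from -0.6 (blue) to 0.6 (red). Nop14, Nop10 and Ddx21 are red in the 4 knockdown libraries, Rrp1b is blue in all knockdown and induction libraries, and Bop1 is darkest in mEx5 induction B.

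Of the 2 box C/D snoRNP proteins tested, 1 fell on induction. Nop56, a scaffold of the particle, stood at 322 and 329 CPM in the pEx5 controls, 303 and 316 in knockdown and 291 and 314 in induction. In mEx5 it stood at 333 and 338, 305 and 338, and 325 and 343, so induction overlapped knockdown in both lines and neither comparison was called (induction 0.01 ± 0.04 SE, limma adjusted p = 0.858). Nop58, its partner in the scaffold, read 817 and 903 CPM in the pEx5 controls, 906 and 920 in knockdown and 793 and 809 in induction. The mEx5 libraries of Nop58 gave 853 and 827, 923 and 941, and 862 and 806. Its knockdown libraries were the highest in both lines and its induction libraries lay below them, with log2 differences of 0.12 ± 0.04 (SE; limma adjusted p = 0.0119) on knockdown and -0.17 ± 0.04 (limma adjusted p = 0.0011) on induction. Fbl, the methyltransferase of the particle, had 1 group value each in the authors' deposited table: 319, 300 and 294 RPKM in pEx5 control, knockdown and induction and 298, 282 and 267 RPKM in mEx5, with none of the authors' 4 knockdown and induction tests under an FDR of 0.05.

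Of the 4 box H/ACA proteins, which carry out pseudouridylation, 2 fell on induction and none rose, with a median of -0.07. Gar1 read 128 and 141 CPM in the pEx5 controls, 128 and 126 in knockdown and 115 and 114 in induction, and 144 and 132, 130 and 130, and 112 and 121 in mEx5. All 4 induction libraries lay below all 4 knockdown libraries, at -0.15 ± 0.04 (SE; limma adjusted p = 0.00966). Nhp2 read 517 and 502 CPM in the pEx5 controls, 530 and 554 in knockdown and 499 and 508 in induction, and 464 and 460, 496 and 507, and 459 and 439 in mEx5. It was highest in knockdown in both lines, with a log2 difference of 0.10 ± 0.03 (SE; limma adjusted p = 0.0137), and fell by 0.13 ± 0.03 (limma adjusted p = 0.00386) on induction. Nop10, the smallest protein of the particle, rose on knockdown and was not called on induction. Its controls read 102, 97.7, 114 and 117 CPM, its knockdown libraries 145, 139, 134 and 164, and its induction libraries 129, 146, 151 and 148. Each control was lower than each treated library, the knockdown difference was 0.43 ± 0.05 (SE; limma adjusted p = 1.42e-06), and the induction difference was -0.01 with a 95% interval from -0.13 to 0.10. Dkc1, the pseudouridine synthase itself, fell by 0.19 ± 0.04 (SE; limma adjusted p = 0.000157) on knockdown, from 307 to 322 CPM in the controls to 270 to 288, and stood at 272 to 288 in induction, where the difference of 0.02 was not called.

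Among the 9 polymerase I and scaffold genes, 4 fell and 1 rose on induction, with a median of -0.09, and 3 rose and 3 fell on knockdown. As for each role class here, these counts stand beside 18.6% of all genes lower and 19.1% higher on induction, and 24.8% lower and 27.1% higher on knockdown. Mybbp1a, a MYB-binding protein abundant in the nucleolus, read 1368 and 1316 CPM in the pEx5 controls, 1599 and 1583 in knockdown and 1262 and 1245 in induction. In mEx5 it read 1268 and 1305, 1515 and 1543, and 1295 and 1263. Knockdown libraries exceeded all others in both lines, by 0.25 ± 0.03 over control (SE; limma adjusted p = 3.2e-06), and the induction difference was -0.30 ± 0.03 (limma adjusted p = 6.3e-07). Ddx21, a DEAD-box RNA helicase that coordinates polymerase I transcription with processing, read 906 and 919 CPM in the pEx5 controls, 1157 and 1139 in knockdown and 925 and 919 in induction. Its mEx5 libraries gave 809 and 833, 1028 and 1062, and 887 and 854. The knockdown difference was 0.34 ± 0.03 (SE; limma adjusted p = 4.8e-08) and the induction difference -0.29 ± 0.03 (limma adjusted p = 9.43e-07), with every knockdown library above the control and induction libraries of its line.

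Tcof1, treacle, which recruits the polymerase I machinery to ribosomal DNA, went the other way. It read 199 and 182 CPM in the pEx5 controls, 160 and 165 in knockdown and 182 and 160 in induction, and 173 and 173, 147 and 155, and 171 and 174 in mEx5. The fall on knockdown was seen in both lines (-0.21 ± 0.04 SE, limma adjusted p = 0.000417), while the rise on induction (0.13 ± 0.04 SE, adjusted p = 0.0221) rested on mEx5 (0.19, adjusted p = 0.026), since in pEx5 the induction libraries overlapped the knockdown ones. Ncl (nucleolin), the member with the most junction reads in this class, read 3079 and 3413 CPM in the pEx5 controls, 3027 and 3082 in knockdown and 2860 and 2909 in induction, and 2955 and 2979, 2910 and 2950, and 2986 and 2816 in mEx5. It was not called on knockdown or induction (induction -0.05, 95% interval from -0.13 to 0.03). Polr1c, a subunit shared with RNA polymerase III, rose by 0.23 on knockdown and fell by 0.10 on induction, and Nolc1, a snoRNP chaperone, fell by 0.18 on knockdown and by 0.09 on induction, each past the limma threshold. The induction calls of Nolc1 and Polr1c were lost in 13 and 6 of 20 alternatives, and that of Tcof1 in 5. The catalytic subunits Polr1a and Polr1b differed by -0.05 and 0.03 on induction, neither called, and Polr1b fell by 0.12 on knockdown. Npm1 (nucleophosmin) gave -0.02 on knockdown and -0.12 on induction, neither called; it has many processed pseudogenes, so its values are uncertain.

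Of the 8 small subunit processing factors 6 fell on induction and none rose, with a median of -0.14, while 3 rose and none fell on knockdown. Nop14, a structural component of the early small subunit precursor, had the largest differences of the list. It read 259 and 279 CPM in the pEx5 controls, 342 and 347 in knockdown and 232 and 239 in induction, and 246 and 255, 360 and 356, and 319 and 297 in mEx5. Knockdown libraries were the highest in both lines (0.44 ± 0.04 SE, limma adjusted p = 1.01e-08). On induction the gene fell by 0.38 ± 0.04 (SE; adjusted p = 1.46e-07) in limma, to below both controls in pEx5 and to values still above both controls in mEx5. This difference between lines was the only 1 among the 33 members that passed the interaction test (-0.33 ± 0.07 SE, limma adjusted p = 0.0415), where 0.753% of all genes passed. For the knockdown effect no member differed between lines, where 0.0289% of all genes did. The call was lost in 9 of the 12 fits that each left out 1 library, among them those without either pEx5 or mEx5 knockdown library, with adjusted p from 0.0326 to 0.192 over the 12. The authors' deposited table gave induction log2 fold changes of -0.55 in pEx5 and -0.22 in mEx5 for the same gene.

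After Nop14, Noc4l had the largest fall of this class, while Wdr75 had its highest mean CPM. Wdr75, part of the complex that joins the precursor first, read 387 and 397 CPM in the pEx5 controls, 375 and 352 in knockdown and 345 and 373 in induction, and 459 and 454, 401 and 459, and 461 and 524 in mEx5. It was higher on induction only in mEx5 by the per-line test (0.20, limma adjusted p = 0.0373; -0.02 in pEx5), and the difference between lines was not called (-0.21, limma adjusted p = 0.356). Noc4l, a partner of Nop14, read 124 and 114 CPM in the pEx5 controls, 136 and 133 in knockdown and 111 and 114 in induction, and 109 and 111, 105 and 116, and 92.2 and 91.8 in mEx5. It fell by 0.26 ± 0.04 (SE; limma adjusted p = 7.39e-05) on induction, with every induction library below the knockdown libraries of its line. Bysl, Utp20, Rrp9 (a U3 snoRNP protein) and Wdr43 fell by 0.24, 0.17, 0.12 and 0.11 on induction, in this order, and Rrp12 was not called (-0.03). The calls of Rrp9 and Wdr43 were lost in 7 and 4 of 20 alternatives. Of these, Utp20 and Rrp9 had risen on knockdown, by 0.13 and 0.11.

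In large subunit processing 7 of 10 tested members fell on induction and none rose, with a median of -0.20, and 5 rose and 1 fell on knockdown. Bop1, which acts with Pes1 and Wdr12 in a complex needed for large subunit maturation, read 514 and 455 CPM in the pEx5 controls, 504 and 526 in knockdown and 456 and 433 in induction. In mEx5 it read 431 and 437, 416 and 441, and 343 and 297. Control and knockdown overlapped (0.04 ± 0.05 SE), and the induction libraries were below the knockdown ones in both lines (-0.32 ± 0.05 SE, limma adjusted p = 2.35e-05), lowest in mEx5. Nop2, a ribosomal RNA methyltransferase, read 301 and 297 CPM in the pEx5 controls, 324 and 331 in knockdown and 276 and 275 in induction, and 257 and 260, 290 and 291, and 239 and 202 in mEx5. It was highest in knockdown and lowest in induction in both lines, with 0.15 ± 0.04 (SE; limma adjusted p = 0.00579) on knockdown and -0.33 ± 0.04 (adjusted p = 6.24e-06) on induction.

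Gnl3 (nucleostemin), a nucleolar GTPase, read 282 and 301 CPM in the pEx5 controls, 321 and 326 in knockdown and 285 and 292 in induction, and 265 and 277, 302 and 322, and 266 and 259 in mEx5. Its knockdown libraries were the highest (0.18 ± 0.04 SE, limma adjusted p = 0.000463) and it fell by 0.21 ± 0.04 (SE; adjusted p = 0.000188) on induction. The authors' tests called neither change of Gnl3 at an FDR under 0.05 in either line. Their log2 fold changes were -0.004 (pEx5) and 0.041 (mEx5) on knockdown, and -0.065 and -0.130 on induction. Yet the authors' RPKM of Gnl3 was highest in knockdown. The pEx5 groups stood at 158.94 (control), 203.59 (knockdown) and 166.09 (induction), the mEx5 groups at 143.51, 198.89 and 135.25. Why these measures differ was not tested. Rrp1b, a nucleolar protein of the large subunit pathway, was the exception of its class. It read 112 and 113 CPM in the pEx5 controls, 91.6 and 92.7 in knockdown and 100 and 92.6 in induction, and 97.3 and 104, 75.8 and 72.0, and 76.3 and 71.3 in mEx5. All knockdown and induction libraries were below the controls of their line, with -0.36 ± 0.04 (SE; limma adjusted p = 9.43e-07) on knockdown and an uncalled 0.03 on induction. In the authors' deposited table the gene's log2 fold change on knockdown was -0.25 in pEx5 and -0.42 in mEx5, yet its group RPKM went up, in pEx5 31.3 in control and 34.3 in knockdown, in mEx5 30.02 and 30.5.

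Of the other large subunit factors, Nip7 fell by 0.31, Pes1 by 0.21, Nop16 by 0.19 and Grwd1 by 0.12 on induction, all past the limma threshold, but the calls of Grwd1 and Nop16 were lost in 10 and 4 of 20 alternatives. Noc3l and Ppan, at -0.02 and 0.01, were not called. The lines went opposite ways for Noc3l, by -8.32% in pEx5 and 6.6% in mEx5, with a call in neither. Its induction libraries lay below the knockdown ones in pEx5 and above them in mEx5. Pes1 and Nip7 had risen on knockdown, by 0.28 and 0.21, and Noc3l by 0.13. In the authors' deposited table the untested members of this class gave induction log2 fold changes in pEx5 and mEx5 of -0.15 and -0.07 for Wdr12, of -0.18 and -0.13 for Ddx18, and of -0.28 and 0.06 for Noc2l. Of these only the pEx5 values had an authors' FDR under 0.05.

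Against control, after induction, 10 members were lower, where 18.8% of all genes were, and 3 were higher, where 19.3% were. The members lower were Dkc1, Gar1, Nolc1, Ncl, Npm1, Noc4l, Bysl, Bop1, Nop2 and Rrp1b, from -0.10 for Ncl to -0.33 for Rrp1b, and those higher were Nop10 (0.42), Polr1c (0.13) and Noc3l (0.11). The lines also differed before any knockdown. In the controls 9 members were higher and 2 lower in pEx5 than in mEx5, where 13.2% and 13.9% of all genes were, with a median of 0.10 over the members beside 0.01 over all genes. Utp20 was the furthest up (0.30 ± 0.05 SE, limma adjusted p = 0.000148) and Wdr75 the furthest down (-0.22 ± 0.07 SE, adjusted p = 0.0191). These counts rested on few libraries, since leaving out mEx5 control A gave 1 call and leaving out mEx5 control B gave 2, against 11, and leaving out either pEx5 control gave 5.

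**Figure D3:**
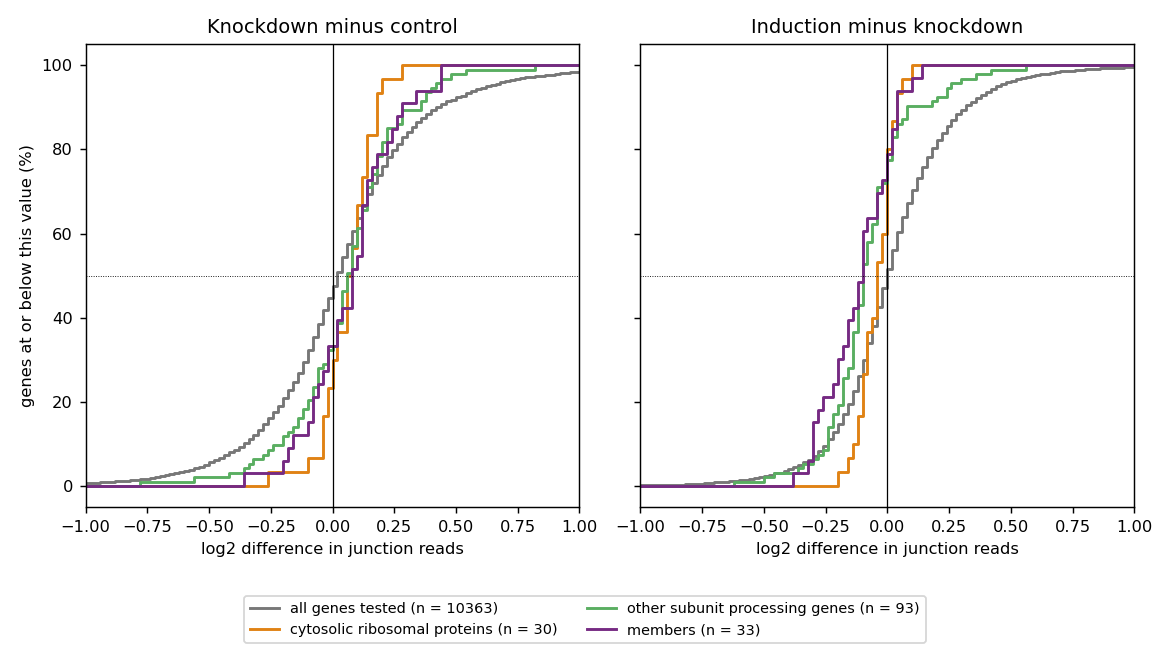
Share of genes (%) at or below each log2 difference in junction reads, on knockdown (left) and on induction (right), for 33 members, 93 other subunit processing genes, 30 cytosolic ribosomal protein genes and all 10363 genes tested. On induction the curves of the members and of the other processing genes lie left of that of all genes over most of the range, with medians of -0.12, -0.11 and -0.01.

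The rest of the pathway was read from lists made by function. Of 46 other small subunit processing genes tested, 23 fell and 3 rose on induction (median -0.10), and of 47 other large subunit processing genes 22 fell and 6 rose (median -0.11). Utp14a, a small subunit processing factor, read 92.0 and 92.9 CPM in the pEx5 controls, 125 and 125 in knockdown and 83.8 and 92.3 in induction, and 89.9 and 95.3, 130 and 136, and 92.9 and 91.2 in mEx5, an induction difference of -0.52 (limma adjusted p = 1.64e-08). Riok1, a kinase of late small subunit maturation, rose by 0.54 on induction and fell by 0.79 on knockdown. In the large subunit list Sbds and Eftud1, which together release a late factor from the large subunit, fell by 0.63 and 0.47 on induction and rose by 0.81 and 0.35 on knockdown. Cytosolic ribosomal protein genes moved little: 3 of 30 tested fell and none rose (median -0.05), the largest being Rpl36 at -0.22. On induction 24 of the 30 (80.0%) lay below 0, beside 78.8% of the members, 77.4% of other processing genes and 51.6% of all genes. By limma 7 of the 30 rose and none fell on knockdown, where 27.1% and 24.8% of all genes did. The authors' deposited table covers 77 ribosomal protein genes, of which 1 fell in pEx5 and 3 in mEx5 on induction and none rose.

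Counts for other parts of the nucleolar machinery on induction stand beside 18.6% of all genes lower and 19.1% higher, and no difference between lists was tested. Of 13 other polymerase I transcription genes 3 fell and 2 rose on induction, with a median of 0.00. Rrn3, the initiation factor of polymerase I, rose by 0.19 and Ubtf, which keeps ribosomal genes open, gave 0.00, after falls of 0.26 and 0.15 on knockdown. Polymerase III subunits fell in 5 of 11 cases and rose in 1, RNA exosome genes fell in 5 of 13 and rose in 4, and snoRNP assembly factors fell in 1 of 8 and rose in 2. In the mitochondrial ribosome 20 of 75 genes fell and 7 rose (median -0.04). Of 13 listed host genes of small nucleolar RNAs 8 were tested. On knockdown 6 of the 8 rose, where 27.1% of all genes did, with a median of 0.26, among them 2810008D09Rik (1.16) and Snhg3 (1.07). On induction 4 of the 8 fell and 1 rose. Of 10 MYC network genes 1 fell and 3 rose on induction. Myc read 40.3 and 36.3 CPM in the pEx5 controls, 51.3 and 46.6 in knockdown and 49.6 and 48.3 in induction, and 35.5 and 38.7, 40.1 and 39.4, and 40.4 and 48.9 in mEx5. It rose on knockdown (0.23 ± 0.06 SE, limma adjusted p = 0.00475) and was not called on induction (0.08 ± 0.06 SE, limma adjusted p = 0.322). By the per-line test the rise of Myc was called in pEx5 (0.35) and not in mEx5 (0.10). Mycn, at 1.36 to 4.35 CPM over the libraries, fell by 0.67 ± 0.14 (SE, limma adjusted p = 0.0012) on induction. Its fall was called in mEx5 (-0.85) and not in pEx5 (-0.48). For neither gene was the difference between lines called in these comparisons.

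The authors' deposited table, held a test for all 37 members. On induction 13 members had a lower value at an FDR under 0.05 in pEx5 and none a higher one, where 8.64% and 10.7% of 18600 genes did, and 13 lower and 2 higher in mEx5, where 9.26% and 10.7% did. In both lines 10 were lower and none higher, where 4.53% and 6.43% of all genes were. On knockdown 5 were lower and 6 higher in pEx5 and 5 and 7 in mEx5, with 17.5% and 15.2% of all genes in pEx5 and 16.8% and 14% in mEx5. The medians of the members' log2 fold changes in that table were 0.01 and 0.02 on knockdown and -0.11 and -0.10 on induction, for pEx5 and mEx5. Group levels per length ran from 15.4 RPKM for Tcof1 in mEx5 knockdown to 4127 RPKM for Npm1 in pEx5 control, with Ncl next at 577 to 717 RPKM.

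Splicing of the members was read from the deposited percent spliced in (PSI) values and their reads. Of 1123 member events with at least 10 reads in each library, 61 in 21 genes had a mean PSI from 5 to 95 and were tested with precision-weighted limma on the logit scale, with a call at an adjusted p under 0.05 over 22770 events and a difference of at least 10 PSI points. On knockdown 10 events in 5 genes were called, 6 higher and 4 lower, where 5.21% of all events were higher and 12.3% lower. They lay in Gnl3, Rrp1b, Nop58, Nop56 and Tcof1. On induction 1 was called higher and none lower, where 8.88% and 2.59% of all events were. After induction, against control, 1 was lower and none higher, where 1.68% and 1.51% of all events were. Both calls were of the same Gnl3 exon. In single lines induction gave 1 call in pEx5, higher, where 5.87% of all events were higher and 1.41% lower. In mEx5 it gave 3 higher and 4 lower in 4 genes (Gnl3, Nip7, Rrp1b and Tcof1), where 7.95% and 2.45% of all events were. Of these 7 events only the Gnl3 exon differed between lines by the interaction test. Positions are given as in the deposited table, whose assembly is not stated and did not match mm10 where checked.

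The largest change concerned a 59 nt exon of Gnl3 (chr14:31830994-31831052 as deposited), whose length is not a multiple of 3. Its PSI was 91.7 and 90.3% in the pEx5 controls, 44.5 and 42.4% in knockdown and 67.3 and 65.7% in induction, and 90.7 and 92.3%, 46.5 and 46.0%, and 88.8 and 86.9% in mEx5. Each value rested on 1425 to 2936 reads, and the exact Clopper-Pearson 95% interval of the least covered one, mEx5 induction B, ran from 85 to 88.6%; such intervals cover counting error only. Within each line the 3 groups did not overlap. All 4 knockdown libraries lay between 42.4 and 46.5%, and both pEx5 induction libraries lay below both mEx5 ones. Over both lines PSI fell by 46.39 points on knockdown (limma adjusted p = 5.83e-11) and rose by 32.35 points on induction (adjusted p = 8.97e-09). The induction gain was 23.09 points in pEx5 and 41.6 in mEx5, and this difference of -18.51 points passed the interaction test (limma adjusted p = 0.00387), where 0.272% of all events were called. In a limma fit without precision weights that also dropped the limit on mean PSI, its adjusted p was 0.353. The authors' own calls marked the exon as changed on knockdown and on induction in both lines and between the induced lines.

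Other events of Gnl3 moved beside it. A 14 nt stretch used with an alternative 5′ splice site of an exon (chr14:31829999-31830093) went from 11.6 and 12.5% in the pEx5 controls to 27.2 and 28.5% in knockdown and 23.5 and 20.3% in induction, and from 12.4 and 10.5% to 24.3 and 29.4% and then 15.5 and 15.6% in mEx5 (15.62 points on knockdown, limma adjusted p = 1.09e-06). A 372 nt intron (chr14:31829641-31830012) was retained more on knockdown (10.14 points) and a 362 nt intron (chr14:31827414-31827775) less (fell by 11.48 points). The 362 nt intron was retained at 24.4 and 24.5% in the pEx5 controls, 13.0 and 15.0% in knockdown and 18.6 and 17.9% in induction, and at 25.7 and 27.4%, 13.5 and 14.6%, and 23.9 and 26.03% in mEx5. These events neighbour each other in the gene and share reads of its transcripts, so they are not independent.

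Introns of Rrp1b were retained on knockdown. An 889 nt intron (chr17:32188795-32189683) was retained at 3.86 and 3.39% in the pEx5 controls, 14.7 and 12.1% in knockdown and 8.17 and 5.85% in induction, and at 3.61 and 2.1%, 14.4 and 20.0%, and 4.37 and 7.26% in mEx5. The next intron, of 1029 nt (chr17:32189773-32190801), was retained at 2.61 and 2.69% in the pEx5 controls, 15.5 and 17.9% in knockdown and 7.36 and 14.1% in induction, and at 4.61 and 1.69%, 20.7 and 18.4%, and 6.22 and 9.15% in mEx5. Both rose on knockdown in limma (12.07 points, adjusted p = 1.38e-05, and 15.19 points, adjusted p = 1.32e-05), with controls and knockdown not overlapping, on 167 to 444 reads per library. On induction they differed by -8.9 and -8.87 points, under the 10 points asked for a call. Junction reads of Rrp1b count its spliced introns only.

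**Figure D4:**
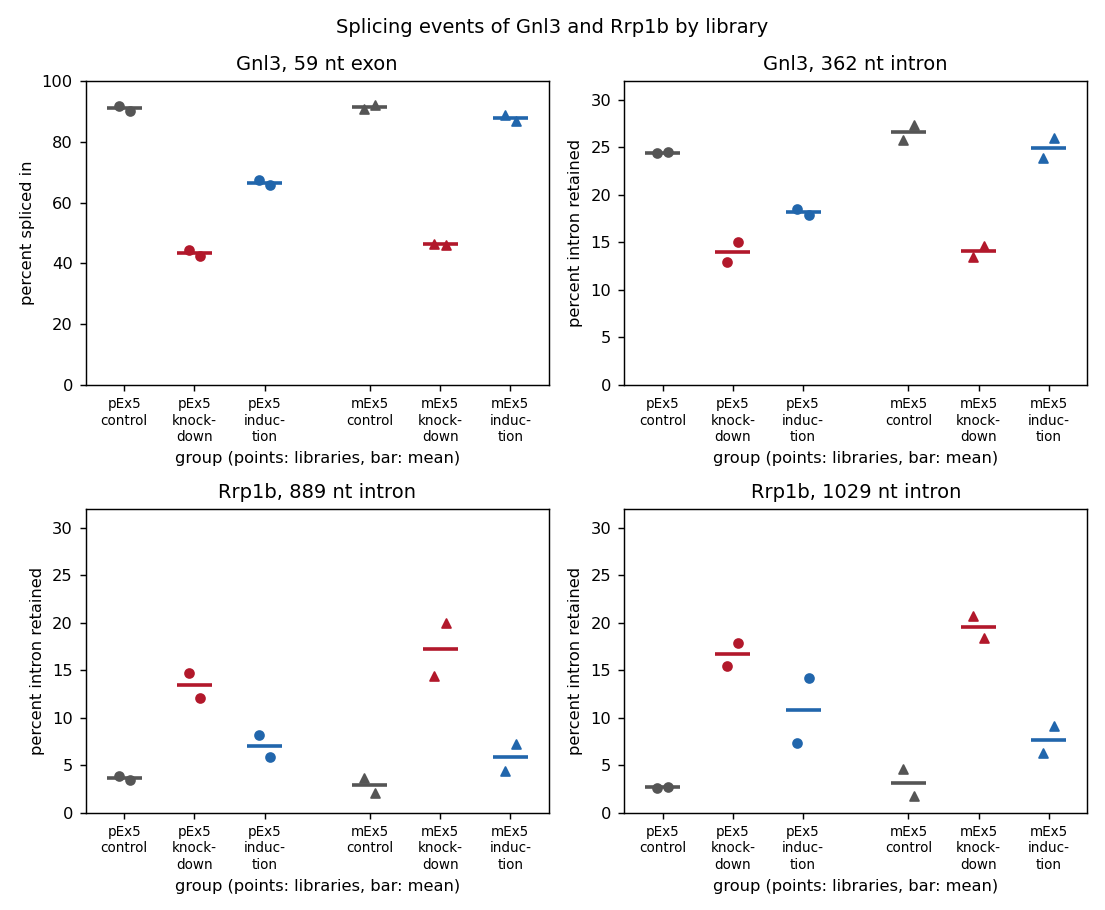
PSI or percent intron retained in each of 12 libraries (points; circles pEx5, triangles mEx5) with group means (bars) for the 59 nt exon and the 362 nt intron of Gnl3 and for the 889 and 1029 nt introns of Rrp1b. The Gnl3 exon falls from 90.3 to 92.3% in the controls to 42.4 to 46.5% in knockdown and stands at 65.7 to 67.3% in pEx5 induction and 86.9 to 88.8% in mEx5 induction.

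The remaining calls on knockdown were smaller and rested on fewer reads. Use of an alternative 3′ site of Nop58 fell by 10.35 points (from 75.3 to 80.0% in the controls to 65.1 to 69.8%) as another site of the same exon rose by 12.1 points, on 70 to 162 reads. In Nop56 an alternative 5′ site fell by 10.07 points (limma adjusted p = 0.0469), on 68 to 380 reads. A 108 nt exon of Tcof1 rose by 12.61 points (adjusted p = 0.000626 in limma), from 42.6 to 55.9% in the controls to 58.9 to 65.9% in knockdown. A 93 nt intron of Nip7 was retained at 12.3 and 11.01% in mEx5 knockdown and 20.8 and 25.5% in mEx5 induction, and at 9.57 and 10.7% and 13.4 and 14.2% in pEx5. Over both lines it rose by 7.58 points on induction, and the difference between lines was not called (limma adjusted p = 0.422). An 80 nt intron of Noc3l differed by 8.42 points on knockdown over both lines, also under 10.

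Reads that cross from an exon into an intron come from RNA not yet, or not, spliced there, and 31 members had a mean of at least 20 of them, among 5884 genes. On induction 5 members fell, where 5.34% of all genes did, and 1 rose (Nip7, 0.42 ± 0.10 SE), where 6.15% did, with a median of 0.04 beside 0.00 over all genes. The 5 that fell were Rrp1b (-0.77), Noc3l (-0.67), Dkc1 (-0.61), Nhp2 (-0.57) and Nop2 (-0.51). On knockdown 8 rose and 7 fell, where 12.2% and 11.3% of all genes did. Noc3l (1.12 ± 0.13 SE, limma adjusted p = 6.11e-10), Pes1 (1.06 ± 0.26 SE) and Rrp1b (0.98 ± 0.11 SE, adjusted p = 8.04e-11) rose most. Grwd1 (-0.79 ± 0.2 SE) and Npm1 (-0.59 ± 0.18 SE) fell most. Pes1 rested on 7 to 81 such reads per library, and its mEx5 control (7 and 29) and knockdown (49 and 25) libraries overlapped. Grwd1 had 22 to 82 such reads and Npm1 38 to 90. For Rrp1b an unspliced percentage was taken as exon-intron reads over exon-intron plus exon-exon reads. Each exon-exon read was counted at both of its splice sites. This percentage was 2.14 and 2.43% in the pEx5 controls, 6.31 and 5.41% in knockdown and 3.93 and 4.19% in induction. In mEx5 it was 2.32 and 2.48%, 7.22 and 6.99%, and 3.38 and 4.78%. Each knockdown library was above each induction library, which in turn lay above each control. Mybbp1a, Ddx21, Bop1 and Nop14, which fell in spliced reads on induction, were not called in exon-intron reads, where Nop14 gave 0.00 with a 95% interval from -0.31 to 0.30.

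**Figure D5:**
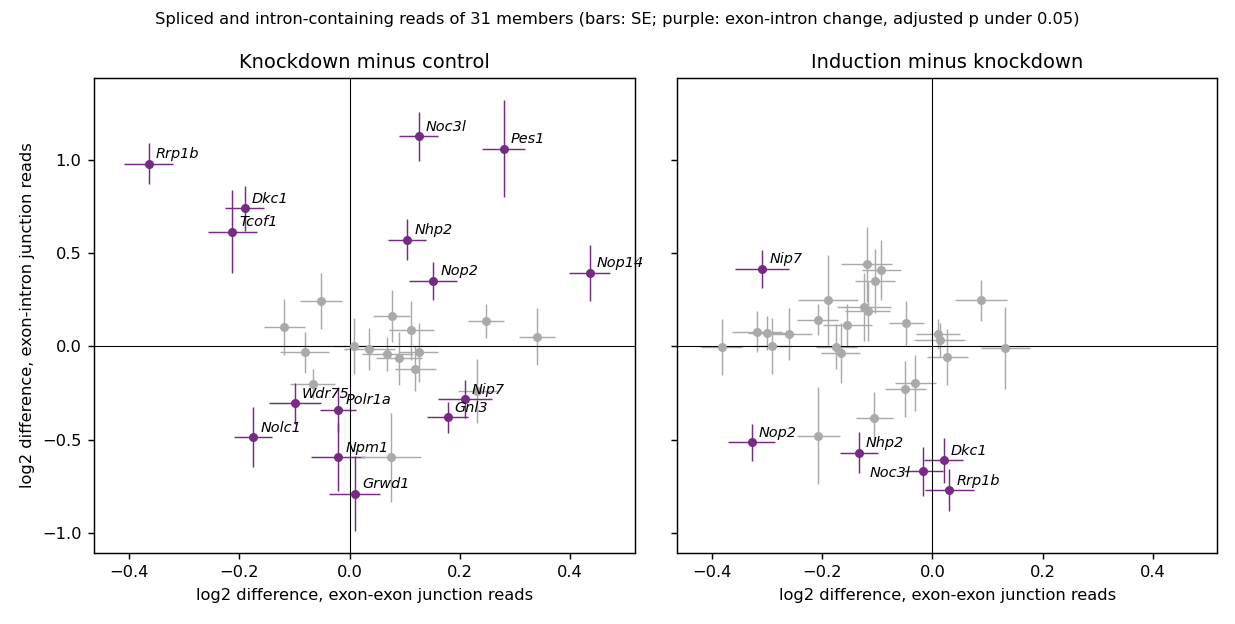
Log2 difference of exon-exon junction reads (horizontal) against that of exon-intron reads (vertical) for 31 members, on knockdown (left) and induction (right), with SE bars; purple points passed an adjusted p of 0.05 in exon-intron reads. On knockdown Rrp1b lies at -0.36 and 0.98, and on induction most points lie left of 0 with exon-intron differences on either side of 0.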

How the data were processed

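Polyadenylated RNA of 12 libraries was analysed, 2 in each of 6 groups. The submitters' processing notes name Salmon 0.14.1, edgeR and mm10. The authors deposited, per the file headers, 1 RPKM per gene and group, log2 fold changes between groups, and p-values with FDR. They also deposited a percent spliced in per event and library with quality text that holds the reads behind it, and a group score of inclusion with their calls. The assembly and version of the splicing table are not given in the sources used here.

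Exon-exon reads were summed per gene and library over those of its introns that are events of the splicing table. The sums were scaled by the median of ratios to CPM and compared by limma 3.58.1 (R 4.3.3) on log2 CPM. The fit used a prior count of 2, a trended prior and genes of at least 20 reads on average. CPM depends on how many introns of a gene are listed, so it is not comparable between genes. All 6 groups shared 1 estimate of the spread, and p-values were adjusted by Benjamini-Hochberg. Exon-intron reads were treated alike. Splicing used weighted limma on logit-transformed inclusion, adding 0.5 reads to each side, a variance floor of 0.01, at least 10 reads in each library and a mean of 5 to 95 percent. Duplicates differed by more than sampling noise, with a chi-square per gene of 4.71 to 9.71. The fits were also run on simulated data, and the outcome is not given here. Python 3.11.15, pandas 2.3.3 and matplotlib 3.10.9 made the tables and figures.

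Library values were printed for the member with the highest CPM and the 2 with the largest induction difference of each role class, for members called on knockdown with a difference of at least 0.3, and for members with a called splicing event. The members and lists were chosen with earlier results of these data known. The alternatives are in the closing section.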

Additional observations from a re-analysis of the deposited data

Results flagged for a closer look

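The response to induction differed between the cell lines for 1 gene and 1 exon of the list, each by a test of the difference itself. For Nop14 the induction difference in pEx5 minus that in mEx5 was -0.329 on the log2 scale (limma adjusted p = 0.0415 over all genes). For the 59 nt exon of Gnl3 the gain in inclusion on induction differed by -18.51 points between pEx5 and mEx5 (limma adjusted p = 0.00387 over all events). The cause was not tested in either case.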

How the results depend on the processing

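The alternatives were run for the counts below, for each member call on knockdown and induction, for the Gnl3 exon and for Nop14 between lines, and none of these changed direction. Uncalled members, other gene lists and single genes of the exon-intron reads were not recomputed. The count of members lower on induction, 20, ran from 14 to 21, with 14 without pEx5 knockdown B or without mEx5 induction B, 15 with an untrended prior and 17 from reads of exon events, an alternative chosen after seeing the data. The count higher on knockdown, 14, ran from 12 to 17. Between the control lines the count of 11 became 7 when scaled by total junction reads, 6 when scaled by the upper quartile and 4 with an untrended prior, and 1 to 13 on leaving out 1 library at a time. The 1 member whose induction differed between lines became 0 with an untrended prior, and 0 to 1 on leaving out a library. Splicing events called on knockdown went from 10 to 3 at a minimum of 15 points, and the 1 on induction ran from 1 to 4 on leaving out a library, with 4 without mEx5 knockdown A. The difference between lines of the Gnl3 exon had an adjusted p of 0.353 in limma without weights and without the limit on mean PSI. Leaving out 1 library kept the call of single members in 434 cases and lost it in 46. On induction, over 20 alternatives, calls were lost most often for Nolc1 (13), Grwd1 (10), Rrp9 (7), Polr1c (6), Tcof1 (5), Nop16 (4) and Wdr43 (4). All 7 lost it without mEx5 induction B. Without pEx5 knockdown B all but Tcof1 did, without pEx5 induction B all but Tcof1 and Wdr43, and without mEx5 knockdown B all but Tcof1 and Nop16. Without pEx5 knockdown A the call was lost for Nolc1, Rrp9, Polr1c and Tcof1, without mEx5 knockdown A for Nolc1, Rrp9 and Tcof1, without pEx5 induction A for Nolc1, Tcof1 and Wdr43, and without either mEx5 control for Nolc1 and Grwd1. On knockdown Rrp9 lost its call without either pEx5 knockdown, pEx5 control B, mEx5 control B or mEx5 knockdown B, Nop58 without pEx5 control A or mEx5 control B, Polr1b without mEx5 control B and Nhp2 without pEx5 knockdown B. With letters A and B as a replicate block the counts were 15 higher and 5 lower on knockdown, 19 lower on induction, 9 lower against control, 11 between control lines, 1 for the difference between lines, 9 and 1 for splicing events and 5 for exon-intron reads. Deviations of same-lettered libraries correlated at -0.127 to 0.163 over 15 pairs of groups, 2 of them above 0.1. Such correlations cannot decide whether same-lettered libraries shared a batch or a culture, which is not given in the sources used here. With 2 libraries a group, small differences may have been missed.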
